A study of Rattus norvegicus with 6 samples.

Results

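The enzymes that turn squalene into cholesterol were followed in rat spinal cord, in tissue taken 35 days after a contusion and in uninjured cord. The 8 genes considered are Sqle, Lss, Cyp51, Msmo1, Nsdhl, Hsd17b7, Sc5d and Dhcr7, taken by their symbol in the annotation table of the array. A probe set on this array is a group of short probes that together report 1 value, meant for 1 transcript. Of 8740 probe sets that are not controls, 15 carried 1 of these symbols alone, and they covered 7 of the 8 genes. No probe set was found for Sc5d by this rule, and it is not analysed here. Total RNA came from about thoracic segment 8 in every sample. The contused group holds 3 arrays of tissue from the epicenter, the point of impact of a blunt blow to the cord, at day 35. The uninjured group holds 3 arrays from the same level of animals without the injury, with no day and no sham operation named, so that surgery, elapsed time and contusion cannot be told apart in this comparison. The labels name no strain, sex or age and no treatment besides the injury, and do not say that each array is a separate animal. All p-values rest on the array-to-array spread, part of which may be technical.

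As background, cells make cholesterol from acetyl-CoA through mevalonate and the open-chain hydrocarbon squalene. Squalene is oxidised, folded into the ring system of lanosterol, stripped of extra methyl groups and rearranged in its double bonds until cholesterol remains. Cholesterol is a main lipid of myelin, the membrane that oligodendrocytes wrap around axons, and the central nervous system makes its own because lipoproteins of the blood do not pass the blood-brain barrier. Genes of the pathway are turned on together by the SREBP transcription factors when sterols in the endoplasmic reticulum run low.

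Values are the deposited signals, linear intensities with 1 value per probe set and array. They can be compared between arrays for 1 probe set, but not between probe sets. A floor was set at the pooled 25th percentile, a signal of 61.6, and changes are given as log2 of the contused over the uninjured group after that floor. A probe set was tested where 3 or more of its 6 values exceeded the floor, and the threshold was an adjusted p of 0.05 in limma over all 6705 probe sets tested. The arrays were alike in scale, with median signals of 122 to 127 and 73.1% to 76% of probe sets above the floor. Across probe sets, the correlation of log2 signals ran from 0.958 to 0.977 for arrays of the same group, and from 0.91 to 0.932 for pairs that join both groups.

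Transcripts of 5 of the enzymes after squalene were lower in the contused cord by at least 1 probe set each. Of the 15 probe sets, 11 fell past the threshold in limma, 0 rose (also 0 at an unadjusted p of 0.05), 2 were tested without passing and 2 were too dim to test. Over the whole array, 9.59% of the probe sets tested were lower and 7.79% higher by the same rule. The probe sets that fell belong to 5 genes, Sqle, Lss, Cyp51, Msmo1 and Dhcr7. The 7 probe sets of Sqle, Msmo1 and Cyp51 that fell did so by 2.32-fold to 4.02-fold, and those of Dhcr7 and of Lss D45252_s_at by 1.64-fold to 1.82-fold. For the other Lss probe set that fell, E12275cds_s_at, only a lower bound could be given. Among the 13 tested probe sets the median log2 change was -1.21, against -0.01 over all probe sets tested. One of the 13, a probe set of Lss, entered the test through its uninjured arrays alone, so the median and the count describe these probe sets and are no support for a fall. Where genes were counted by their brightest tested probe set, 4 of the 6 with such a probe set were lower, against 9.91% of all genes so counted. In bulk tissue, fewer cells of a type and less RNA per cell cannot be told apart.

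**Figure D1:**
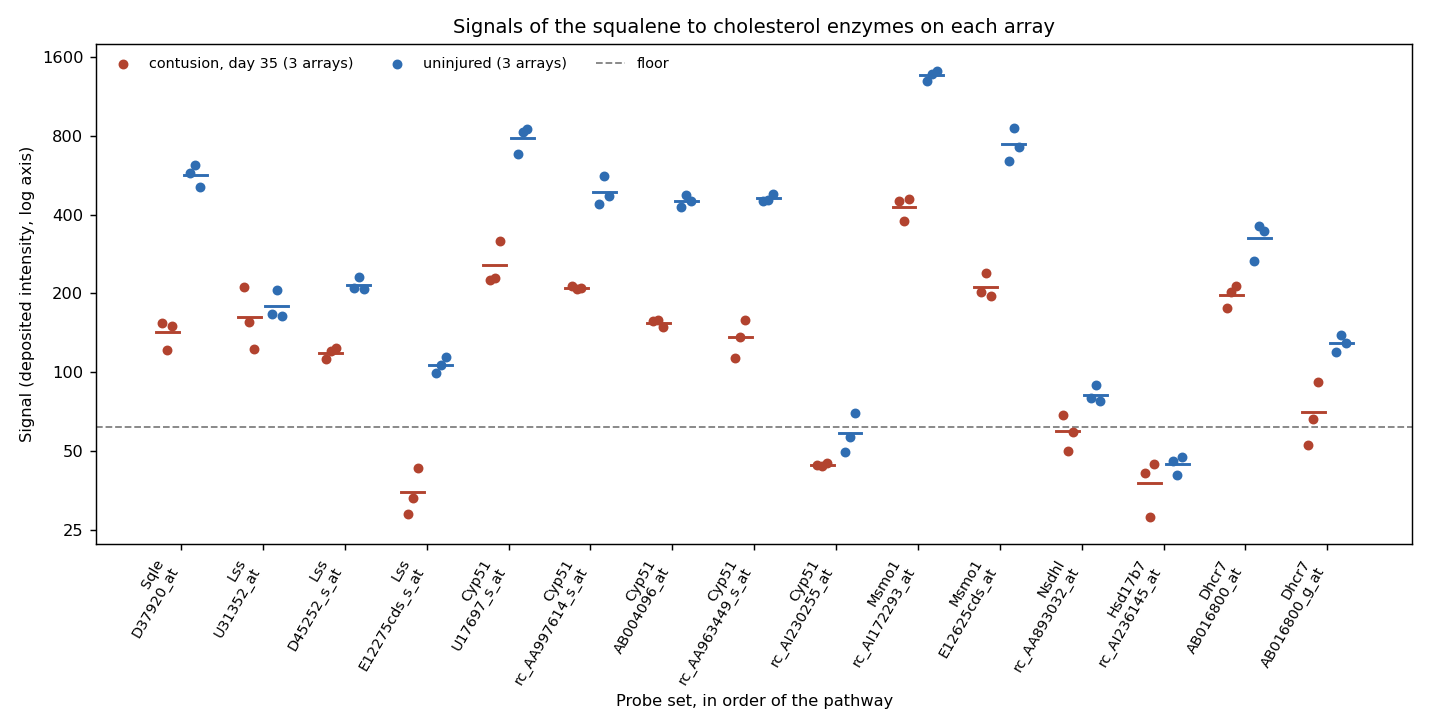
Deposited signal (log axis) of the 15 probe sets on each of the 3 contused (left of each pair) and 3 uninjured arrays, in order of the pathway, with group means as short lines and the floor of 61.6 as a dashed line. In 13 of the 15 probe sets every contused array lies below every uninjured array; the exceptions are Lss U31352_at and Hsd17b7. The same held for 15.3% of all 8740 probe sets, tested or not, and the 13 include the untested Cyp51 rc_AI230255_at.

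Sqle encodes squalene epoxidase, which puts the oxygen on squalene and is a rate-limiting step of the pathway. Its single probe set read 154, 122 and 149.9 on the contused arrays, against 578, 620.1 and 511 on the uninjured arrays. The groups were far apart, with the highest contused array well under the lowest uninjured one. Means were 142 ± 17.6 in contused and 569 ± 55.2 in uninjured cord (signal, SD, n = 3 each), a 4.02-fold fall (log2 change -2.01, SE 0.15, limma adjusted p = 2.66e-05). It was the 6th largest fall among the 6705 probe sets tested.

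Lss encodes lanosterol synthase, which folds squalene epoxide into lanosterol, the first sterol of the pathway. Its 3 probe sets did not give 1 answer. D45252_s_at read 113, 121 and 123 on the contused arrays and 210.0, 231 and 208 on the uninjured arrays. These groups were tight and separate, and the fall was 1.82-fold (log2 change -0.86, SE 0.14, adjusted p = 0.00174). E12275cds_s_at read 28.7, 33 and 43 in contused and 99.1, 106 and 114 in uninjured cord. All its contused arrays lay at or under the floor, so its fall is at least 1.72-fold (limma adjusted p = 0.00103). The floor left its contused values with an SD of 0 in log2 signal, and this lack of spread enters the p-value. With values used down to a signal of 1 in place of the floor its log2 change was -1.63. U31352_at read 212, 155 and 122 in contused and 167, 206 and 163 in uninjured cord. Here the groups overlapped, with the highest and the lowest of all 6 values both on contused arrays. Its log2 change was -0.16 (95% confidence interval -0.62 to 0.29, adjusted p = 0.655), and the value was 0.03 without contused array 3. The intervals of U31352_at and D45252_s_at (-1.17 to -0.56) touch at their ends, and the difference between the probe sets was not tested. The ending _s_at is the array maker's mark for a probe set whose probes may match more than 1 transcript.

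Cyp51 encodes lanosterol demethylase, the cytochrome P450 that removes the first of the extra methyl groups. It had 5 probe sets, of which 4 were tested and all 4 fell. U17697_s_at read 225, 228 and 317 on the contused arrays, against 681, 828 and 854 on the uninjured arrays. rc_AA997614_s_at read 214, 208 and 209.6 in contused and 438, 563 and 471 in uninjured cord. AB004096_at read 157, 158 and 148 in contused and 428, 478 and 450.2 in uninjured cord. In each of these the lowest uninjured array exceeded the highest contused array, and the spread within the contused arrays was small except for array 3 of U17697_s_at, which stood above the other two. rc_AA963449_s_at read 114, 136 and 158 on the contused arrays and 453, 455 and 480 on the uninjured arrays. The falls were 3.09-fold, 2.32-fold, 2.93-fold and 3.43-fold in this order, with log2 changes of -1.63, -1.21, -1.55 and -1.78 and adjusted p-values of 0.000157, 0.000307, 5.79e-05 and 6.54e-05. Their 95% confidence intervals all overlapped. The fifth probe set, rc_AI230255_at, read 44.3, 43.7 and 45 in contused and 49.5, 56.5 and 69.7 in uninjured cord, with 1 array above the floor, and was not tested.

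Msmo1 encodes the sterol oxidase that works on the methyl groups left after the Cyp51 step. Both of its probe sets fell. rc_AI172293_at read 449.6, 379 and 459.7 on the contused arrays, against 1300.3, 1384 and 1418 on the uninjured arrays. E12625cds_at read 202, 239 and 195 in contused and 644, 861 and 727 in uninjured cord. Neither overlapped between the groups, and the contused values were nearer to each other than to any uninjured value. Means of rc_AI172293_at were 429 ± 43.9 in contused and 1367 ± 60.7 in uninjured cord (SD, n = 3 each), a 3.19-fold fall (log2 change -1.68, SE 0.13, limma adjusted p = 2.66e-05). For E12625cds_at the fall was 3.49-fold (log2 change -1.81, SE 0.15, adjusted p = 5.79e-05). The change of 1 probe set lay inside the confidence interval of the other.

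Nsdhl and Hsd17b7 encode the dehydrogenase that takes off the oxidised methyl groups and the reductase that restores the ring's hydroxyl group afterwards. Both sat near the floor. Nsdhl read 68.6, 50.1 and 59.3 on the contused arrays and 80.0, 89.1 and 77.3 on the uninjured arrays. The groups did not overlap, but 2 of the 3 contused arrays were at the floor and the log2 change of -0.36 (95% confidence interval -0.61 to -0.11) missed the threshold (adjusted p = 0.0526). It passed with quantile normalization (0.0371) and without contused array 1 (0.0489). Under every other alternative that gave a value it did not pass, with limma adjusted p-values of up to 0.155. Hsd17b7 read 41, 27.9 and 44.5 in contused and 45.6, 40.3 and 47.5 in uninjured cord, below the floor on all 6 arrays, and was not tested. A change of Hsd17b7 was therefore not detectable at this signal, which does not show that there was none.

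Dhcr7 encodes the reductase that gives cholesterol itself in one branch of the pathway. AB016800_at read 175, 202 and 213 on the contused arrays, against 266, 362 and 347 on the uninjured arrays. AB016800_g_at, designed on the same sequence, read 52.6, 66 and 91.9 in contused and 119, 139 and 129 in uninjured cord. The groups were separate in both, though nearer to each other than in the tested probe sets of Sqle, Cyp51 and Msmo1. The falls were 1.64-fold (log2 change -0.72, SE 0.16, limma adjusted p = 0.0125) and 1.79-fold (log2 change -0.84, SE 0.17, adjusted p = 0.00611). Contused array 1 of AB016800_g_at lay under the floor, and with values used down to a signal of 1 its log2 change was -0.92. The call of AB016800_at was lost without contused array 1 (0.0504), without uninjured array 3 (0.0662) and with no filter on dim probe sets (0.0597), and that of AB016800_g_at in the last case (0.0582).

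**Figure D2:**
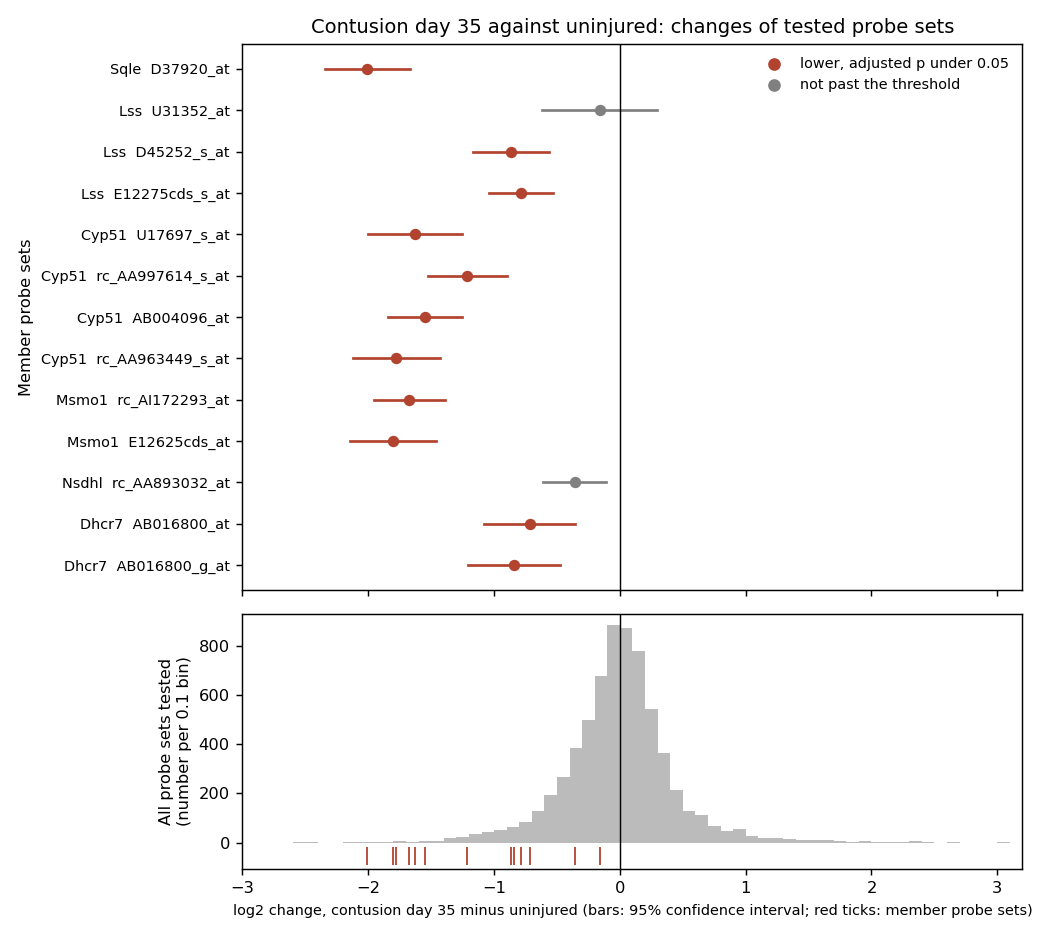
Upper panel, log2 change of contused minus uninjured cord for the 13 tested probe sets in order of the pathway, with 95% confidence intervals from limma and calls in red. Lower panel, the number of all 6705 tested probe sets per bin of 0.1, with the 13 marked as red ticks: they run from -2.01 to -0.16, and 7 are among the 100 largest falls.

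Along the pathway the falls were uneven. The confidence intervals of Sqle (-2.34 to -1.67) and of the Msmo1 probe sets (-1.96 to -1.39 and -2.15 to -1.46) lay entirely below those of both Dhcr7 probe sets (-1.08 to -0.35 and -1.21 to -0.47). They also lay below those of Lss D45252_s_at and U31352_at. The third Lss probe set, E12275cds_s_at, is left out here because its contused values are all set by the floor. With values used down to a signal of 1 its log2 change was -1.63, inside the intervals of both Msmo1 probe sets. Differences between probe sets were not tested. For Dhcr7 AB016800_g_at, contused array 1 is set by the floor too. The Cyp51 probe set with the smallest fall, rc_AA997614_s_at (-1.53 to -0.90), overlapped with Dhcr7. A fall of at least 2-fold was reached by 7 probe sets, those of Sqle, Cyp51 and Msmo1, against 2.39% of all probe sets tested, while Lss E12275cds_s_at has only its bound at this floor. In 12 of the 13 tested probe sets every contused array was below every uninjured array, as in 18.2% of all probe sets tested. Relative to the uninjured mean, the median over the 13 was -1.19, -1.23 and -1.22 (log2) on contused arrays 1, 2 and 3, and -0.09, 0.11 and 0.00 on uninjured arrays 1, 2 and 3. All contused medians are values of the same probe set, Cyp51 rc_AA997614_s_at, so their closeness does not describe the other probe sets. With Lss E12275cds_s_at left out, the SD of log2 signal over the contused arrays ran from 0.022 for that Cyp51 probe set to 0.399 for Lss U31352_at.

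The promoters of genes with a probe set that fell are shown as a description, and no link between promoter and fall was tested. A promoter here is the stretch of 250 bases before to 50 after the gene's start, from RefSeq on build GRCr8. The table held 6 of the 7 measured genes, and Sqle was not among them. Sequences are printed 5′ to 3′ on the strand of the gene, with capitals for each match on either strand to CCAAT, the box bound by NF-Y, or to GGGCGG, the box bound by Sp1. A match on the opposite strand therefore reads ATTGG or CCGCCC. Both factors are known to act beside SREBP at sterol genes. The Lss window is chr20:12118181-12118480 (minus strand), that of Cyp51 chr4:30991443-30991742 (plus strand), that of Msmo1 chr16:29746863-29747162 (plus strand) and that of Dhcr7 chr1:208444184-208444483 (plus strand).
Lss: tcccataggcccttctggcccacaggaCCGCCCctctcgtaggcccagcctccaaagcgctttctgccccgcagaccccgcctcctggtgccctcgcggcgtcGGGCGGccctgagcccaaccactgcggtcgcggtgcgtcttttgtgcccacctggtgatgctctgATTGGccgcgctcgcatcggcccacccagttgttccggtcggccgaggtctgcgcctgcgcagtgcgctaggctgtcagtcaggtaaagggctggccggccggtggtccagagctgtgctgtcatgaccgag
Cyp51: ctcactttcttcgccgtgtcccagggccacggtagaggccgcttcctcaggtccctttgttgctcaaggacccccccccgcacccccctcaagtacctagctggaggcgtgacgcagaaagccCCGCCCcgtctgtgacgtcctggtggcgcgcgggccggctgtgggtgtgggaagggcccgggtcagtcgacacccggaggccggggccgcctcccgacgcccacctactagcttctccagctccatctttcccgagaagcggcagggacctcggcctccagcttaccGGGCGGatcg
Msmo1: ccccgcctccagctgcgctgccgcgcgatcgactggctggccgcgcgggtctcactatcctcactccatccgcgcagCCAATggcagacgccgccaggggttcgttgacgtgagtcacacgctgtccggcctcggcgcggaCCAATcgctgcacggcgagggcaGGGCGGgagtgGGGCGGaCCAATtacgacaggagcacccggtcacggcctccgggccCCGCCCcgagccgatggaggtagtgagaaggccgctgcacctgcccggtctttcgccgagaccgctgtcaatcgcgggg
Dhcr7: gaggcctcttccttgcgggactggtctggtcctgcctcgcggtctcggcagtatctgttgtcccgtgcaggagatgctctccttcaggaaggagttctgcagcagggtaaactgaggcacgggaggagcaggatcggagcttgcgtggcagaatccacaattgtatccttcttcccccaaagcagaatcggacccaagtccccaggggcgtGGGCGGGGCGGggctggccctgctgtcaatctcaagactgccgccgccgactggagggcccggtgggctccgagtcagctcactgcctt

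GGGCGG was found in 5 of the 6 windows (Lss, Cyp51, Msmo1, Hsd17b7 and Dhcr7), and in 33.1% of all 33469 promoter windows of the table. CCAAT was found in 4 of the 6 (Lss, Msmo1, Nsdhl and Hsd17b7), and in 37.5% of all windows. The 6 windows include those of Nsdhl, which missed the threshold, and Hsd17b7, which was not tested. Among the genes printed above, CCAAT lay in Lss and Msmo1 alone. Msmo1 held 3 matches of each kind, which began at positions -173 to -29 relative to its start, and Dhcr7 held 2 overlapping GGGCGG matches that began at -39 and -34. TCACNCCAC, a core of the sterol regulatory element bound by SREBP, was found in 0 of the 6 windows and in 1.12% of all windows. All motifs were searched on both strands, and no match of one kind overlapped a match of another. A match describes the letters of the window and is not a site shown to be in use, and the lack of one says only that these letters are not there.

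**Figure D3:**
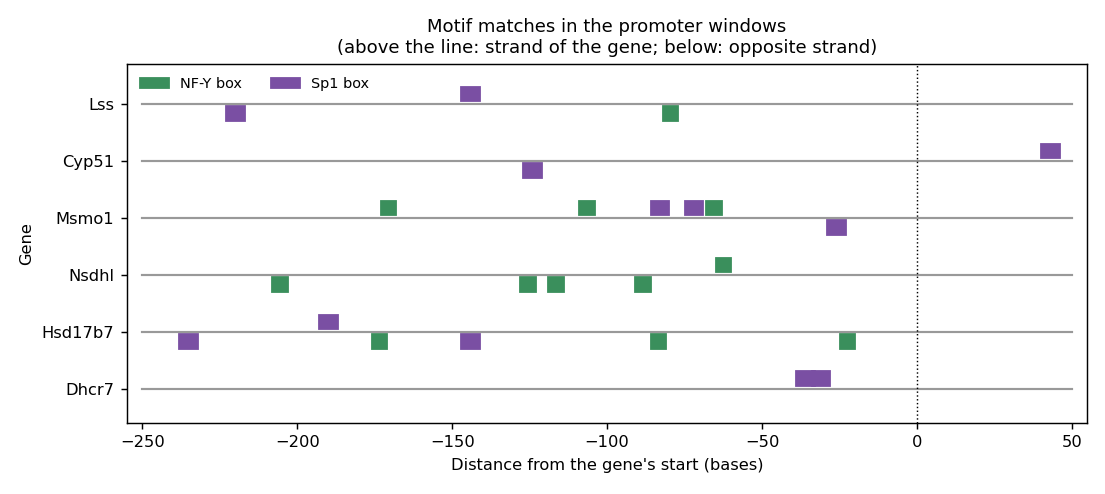
Positions of the matches to CCAAT (green, NF-Y box) and GGGCGG (purple, Sp1 box) in the promoter windows of 6 genes, as the distance in bases from the gene's start, above the line for the strand of the gene and below it for the opposite strand. GGGCGG lies in 5 of the 6 windows and CCAAT in 4.

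The rest of the pathway was read from lists of other genes, each gene by its brightest tested probe set. Upstream of squalene, 5 of 6 tested mevalonate pathway genes were lower and 0 higher, with a median log2 change of -1.18. Acat2, which joins acetyl-CoA units, fell 3.58-fold (172 ± 10.1 in contused and 616 ± 11.2 in uninjured cord). Idi1, which isomerises the isoprene unit, fell 2.89-fold and Fdps, which builds farnesyl diphosphate, 2.47-fold. The exception was the kinase gene Mvk, with a log2 change of -0.36 (adjusted p = 0.299) in its brightest probe set, while its other probe set fell. Of the other enzymes after squalene only Ebp, the isomerase that shifts the ring double bond, could be tested. It read 94.2, 93.2 and 95.5 on the contused arrays and 127, 139 and 119 on the uninjured arrays, a 1.36-fold fall (adjusted p = 0.0392) whose call was lost when any 1 array was left out.

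Among 5 tested genes of sterol sensing, 1 was lower and 1 higher, with a median of 0.16. Insig1, which holds SREBP back in the endoplasmic reticulum and is itself a target of SREBP, fell 4.01-fold. Srebf1, an SREBP gene with a main role in fatty acid synthesis, rose 2.6-fold. Genes of sterol storage, export and oxidation had 7 of 8 tested members higher and 0 lower, with a median of 0.88. One of them, Soat1, could be tested through its contused arrays alone, and of the other 7 tested genes 6 were higher and 0 lower, with a median of 0.80. Plin2, a coat protein of lipid droplets, rose 2.9-fold and the apolipoprotein gene Apoc1 3.02-fold, and Soat1, which esterifies cholesterol, was at least 2.24-fold higher because all its uninjured arrays were at the floor. With no filter on dim probe sets, 3 genes of this list were higher. The exception, Cyp27a1, which oxidises the sterol side chain, had a log2 change of -0.17 in its brightest probe set and a rise in the other, and of the 3 probe sets of the lysosomal lipase gene Lipa 2 rose. Over all genes 9.91% were lower and 7% higher. In every list of sterol genes or cell markers given here with 0 genes in 1 direction, the count in that direction was also 0 at an unadjusted p of 0.05 in limma, except for the Schwann cell markers.

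**Figure D4:**
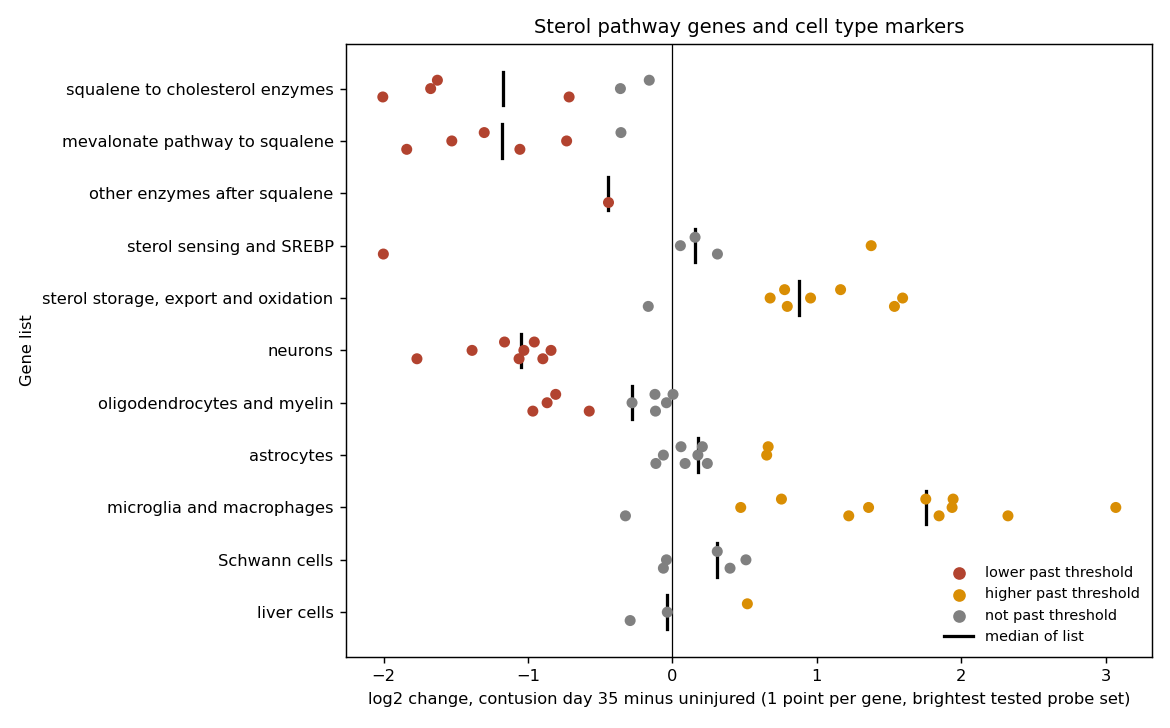
Log2 change of contused minus uninjured cord for each gene by its brightest tested probe set, in the enzymes after squalene, 4 other lists of sterol genes and 6 lists of cell type markers, with list medians as black lines. Genes of cholesterol synthesis before and after squalene and neuron markers lie to the left of 0. Sterol storage genes lie to the right except Cyp27a1 (-0.17), and so do microglia and macrophage markers except Csf1r (-0.33).

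Markers of cell types moved in the same samples. Of 8 tested neuron markers 8 were lower, with a median log2 change of -1.05. Their summed signal ran from 6869 to 7421 on the contused arrays and from 13794 to 16148 on the uninjured arrays. Summed signals, here and below, add probe sets that share no scale. They follow the brightest genes most and do not measure amounts of cells. Thy1, a surface protein of neurons, fell 3.41-fold and the neurofilament gene Nefh 2.04-fold. Of 9 oligodendrocyte and myelin markers 4 were lower and 0 higher, with a median of -0.28 and summed signals of 14276 to 15381 in contused and 17283 to 18381 in uninjured cord. Mog, a myelin surface protein, fell 1.83-fold and the connexin gene Gjb1 1.75-fold. The other 5 did not pass, with log2 changes from -0.28 (Mal) to 0.004 (Mbp) in their brightest probe sets. Of 9 astrocyte markers 2 were higher and 0 lower (median 0.18, summed signals 12948 to 13881 in contused and 12591 to 13261 in uninjured cord). These were Fabp7 (1.57-fold) and Gja1 (1.58-fold), and the count was 0 with no filter on dim probe sets or without contused array 2, contused array 3 or uninjured array 3, and 1 without any other array.

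Of 11 microglia and macrophage markers 10 were higher and 0 lower, with a median of 1.75 and summed signals of 11115 to 11649 in contused and 3615 to 4560 in uninjured cord. Itgam and Fcgr2b could be tested through their contused arrays alone, and of the other 9 genes 8 were higher and 0 lower, with a median again of 1.75. The exception, Csf1r, a receptor for a growth factor of these cells, had a log2 change of -0.33 (adjusted p = 0.175). Lgals3 (galectin-3) rose 8.4-fold and Fcgr2b, an IgG receptor, was at least 5.01-fold higher. Of 5 Schwann cell markers 0 passed in limma (at an unadjusted p of 0.05, 2 were higher and 0 lower; median 0.31), 2 were higher with quantile normalization, and summed signals were 6972 to 8912 in contused and 6840 to 7339 in uninjured cord. The brightest, S100b, is also an astrocyte marker and had a log2 change of -0.06. Of 3 tested liver markers, listed as cells foreign to the cord, 1 was higher and 0 lower. This was Alb, near the floor at 98.1 ± 11.1 in contused and 67.4 ± 9.88 in uninjured cord (SD, n = 3 each), a call lost without contused array 2 or 3 or uninjured array 1 or 2. The list's summed signals were 233 to 264 in contused and 209 to 290 in uninjured cord. Probe sets of 1 gene differed in call for Map2, Mag, Aif1, Ptprc, C1qc and Alb. The tested markers of neurons, myelin and astrocytes were above the floor in both groups, which the filter for testing partly fixes in advance. The neuron marker Syt1 had 1 probe set, which was too dim to test. The part of any of these shifts in the fall of the sterol enzymes was not tested.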

How the data were processed

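Each sample was measured on 1 one-colour oligonucleotide array. The deposited values are intensities, 1 per probe set and array, taken to be linear because of their skew and because 21 to 32 per array are below 0. The authors' summary and scaling steps are not given in the sources read. The table held 0 columns of other samples. After trimming 2% at both ends, array means lay between 209 and 228 and differed by up to 8.94%, within the limit of 10%, so arrays were not rescaled. Groups came from the sample titles. The 59 control probe sets were left out. Among the remaining 8740, 7006 had 1 gene symbol, 308 had several and 1426 had none. The gene identifier gave current GRCr8 symbols for 6985, and 21 kept the old one. No source names the build behind the array.

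Values under the floor were set to it, taken to log2 and fitted in limma 3.58.1 (lmFit and eBayes with an intensity trend, under R 4.3.3), two-sided, with no covariates and 4 residual degrees of freedom. P-values were adjusted by Benjamini-Hochberg. The number of arrays, 3 a group, limits the precision, and an exact permutation test cannot go below 0.1 here, so none was run. SEs and intervals are limma's. The limma fit was tried on simulated log2 values to which the floor and filter were not applied. That trial therefore says nothing of probe sets near the floor. The members, lists and tests were chosen with earlier results of these data known. Named are all probe sets of the members, up to 3 genes per direction with the smallest p in each sterol list (or the brightest where none passed), up to 2 in each marker list, and genes whose probe sets differ in call. Cyp27a1, Lipa and Mvk were named for their differing probe sets. Itgam, Csf1r, Mal and Mbp were named after their values were seen. Alternatives were quantile and median scaling, other floors, no filter, no trend, a replicate block and leaving out each array. Figures were drawn with matplotlib 3.10.9 in Python 3.11.15.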

Additional observations from a re-analysis of the deposited data

How the results depend on the processing

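The log2 change of each tested member probe set kept its sign under all 14 alternatives that gave a value, except Lss U31352_at without contused array 3. Between 9 and 12 of the 15 were lower under every alternative and 0 higher. Of 179 member values under alternatives, 4 lost their call, all of Dhcr7, and 2 gained one, both of Nsdhl; at a floor of the pooled 50th percentile 10 probe sets could be tested. At a floor of the 10th percentile the 2 untested ones gave log2 changes of -0.39 (Cyp51 rc_AI230255_at, adjusted p = 0.146) and -0.21 (Hsd17b7, 0.491). Over the whole table, 1165 probe sets passed, 643 lower and 522 higher. With no filter on dim probe sets 662 passed, 396 lower and 266 higher, and 3 sterol storage, export and oxidation genes were higher in place of 7. With 1 array left out, 659 to 1260 passed, 383 to 776 lower and 276 to 484 higher. The total was lowest without uninjured array 3 (659) and without contused array 2 (723). The count of other enzymes after squalene, which rests on Ebp alone, was 0 at a floor of the pooled 10th or 50th percentile, with the replicate block and with any 1 array left out (0 to 0). Motif counts were the same in the 250 bases before the start alone. Same-numbered arrays of the groups correlated at 0.04, 0.22 and -0.24 in their deviations from the group means. Contused array 1 correlated best with uninjured array 3 (0.27). These values give no sign that the numbers pair the arrays, but 3 arrays a group cannot exclude it. With the replicate number as a block, 1200 probe sets passed and 11 of the 15 member probe sets were lower. Signals near the floor limit what can be said of Nsdhl, Hsd17b7, the dim Lss and Cyp51 probe sets, Dhcr7 AB016800_g_at and Ebp.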
